A study of Homo sapiens with 18 samples.

Results

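The genes of polyamine metabolism were examined as one group of 10, chosen by symbol from the 56269 genes of the deposited table: ODC1, AMD1, SRM and SMS of synthesis, SAT1, SMOX and PAOX of catabolism, and OAZ1, OAZ2 and AZIN1, which control ornithine decarboxylase. RNA was sequenced from IMR90 cells, a line of human fetal lung fibroblasts, in 6 groups of 3 libraries. The pre-incubation lasted 6 h and used PBS, cNSF-HA or fNSF-HA, the latter both at 20 µg/ml. NSF-HA is the very long hyaluronan (HA) secreted by naked mole-rat skin fibroblasts, cNSF-HA was mixed with heat-inactivated hyaluronidase and stayed long, and fNSF-HA was partially fragmented by the active enzyme. In 3 of the groups the HA or PBS was then removed and the oxidant tert-butyl hydroperoxide (tBHP) was given at 200 µM for 1 h, and these cells were collected 6 h after the start of tBHP. The cells without tBHP were collected at the end of the pre-incubation, so exposure to tBHP and the additional hours in culture cannot be told apart. All groups come from 1 cell line. The study calls its replicates biological without saying what separated the libraries of a group, and the p-values measure the spread between these libraries.

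Polyamines (putrescine, spermidine and spermine) are small positively charged molecules that bind nucleic acids and are needed for growth and translation. ODC1 makes putrescine from ornithine, AMD1 makes the aminopropyl donor from S-adenosylmethionine, and SRM and SMS add aminopropyl groups to give spermidine and spermine. SAT1 acetylates spermidine and spermine for export or oxidation by PAOX, while SMOX oxidizes spermine directly and releases hydrogen peroxide. Antizymes (OAZ1, OAZ2) bind ODC1 protein, send it to the proteasome and limit polyamine uptake, and AZIN1 is an inactive relative of ODC1 that captures antizyme.

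The libraries held 20261103 to 26287660 reads on genes, and the fibroblast markers COL1A1, COL1A2 and COL3A1 were abundant in all 18. Of the markers of other cell types, SFTPC and CDH5 had no read in any library and EPCAM did not exceed a normalized count of 5.47. The 5 epithelial genes together ranged from 1904 to 2152 without tBHP and from 1158 to 2041 after it, nearly all of it KRT8 and KRT18, and the part of this shift in the results was not tested. The 4 endothelial genes together ranged from 6.52 to 14.8 without tBHP and from 13.1 to 25.1 after it. The 3 leukocyte genes ranged from 1.97 to 5.86 and from 2.19 to 11.3, and the part of these shifts was not tested either. After tBHP the libraries of a group differed more than without it. The median SD of log2 values within groups was 0.206 after tBHP and 0.0761 without it. All 10 polyamine genes passed the filter of a mean normalized count of at least 10, as did 13686 genes in all.

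Read per kb of annotated exon, the group spanned a wide range of levels. In PBS cells SMS was the most abundant at 3906 ± 84.0 normalized counts per kb (mean ± SD, n = 3), followed by OAZ1 (2576), SRM (2312), ODC1 (1896) and AZIN1 (841). AMD1 (478), OAZ2 (244), SAT1 (218) and SMOX (194) were lower, and PAOX was the lowest at 20.4 ± 3.79 per kb. No 2 neighbours in this order overlapped in the PBS libraries. The order depends on the length used, as the annotated exons exceed the longest transcript (2498 against 1135 bases in SAT1, 1898 against 1266 in SRM). After tBHP in PBS cells, SMOX took rank 5 of the 10 at 746 ± 138 per kb and AMD1 rank 9 at 196 ± 33.3 per kb. In that group the ranges of OAZ1 and SMS overlapped, and so did those of AZIN1 and SAT1.

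**Figure D1:**
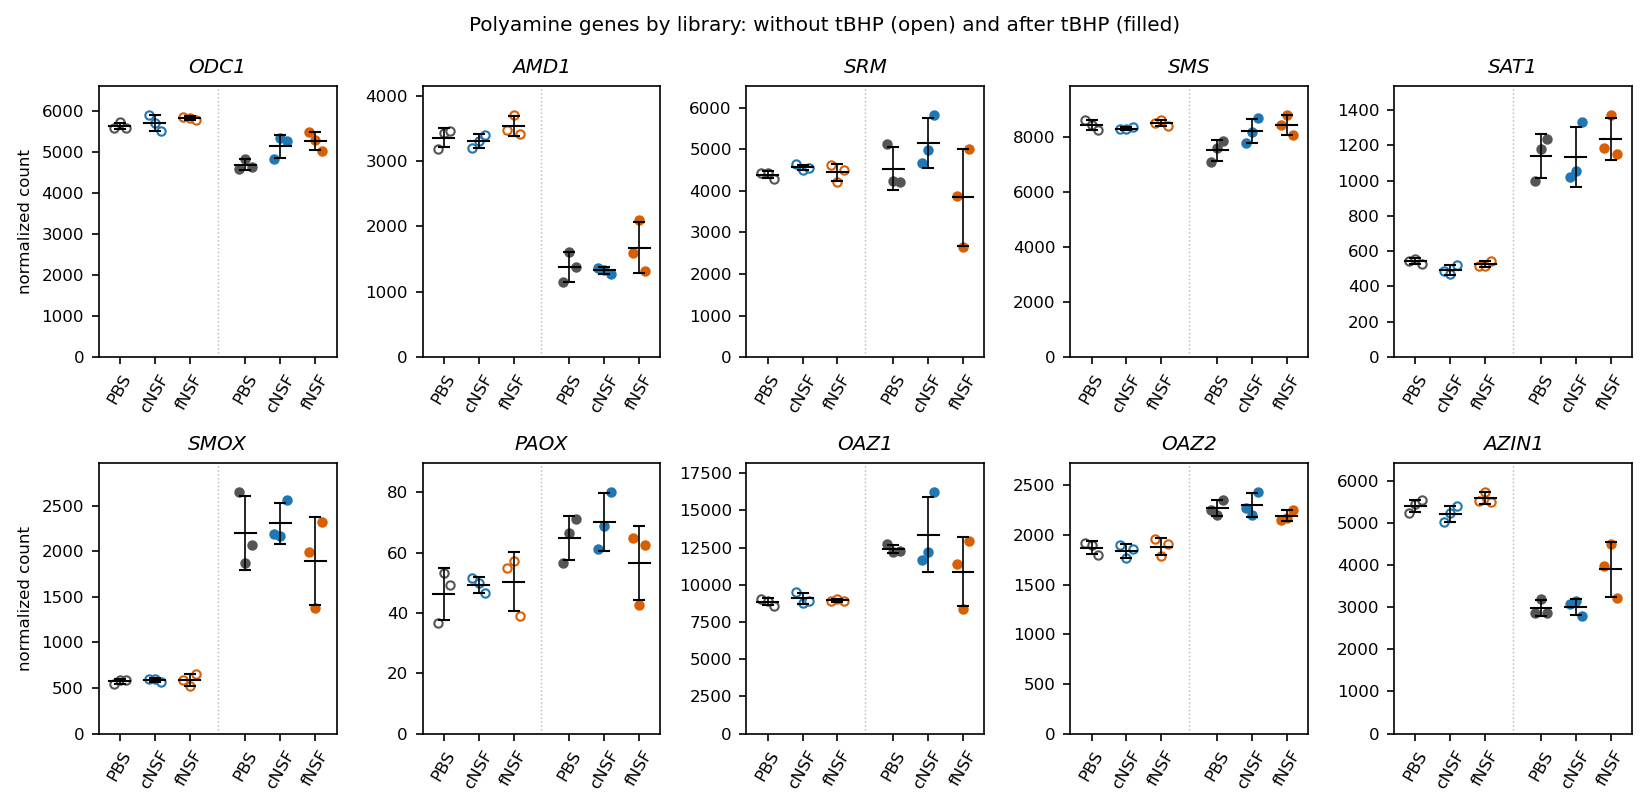
Normalized count of each of the 10 genes (y axes, linear, starting at 0) in the 18 libraries, grouped by pre-incubation, with open points for cells without tBHP and filled points for cells after tBHP, and with the mean and SD of 3 libraries in black. SAT1, SMOX and OAZ2 lie higher in all 9 libraries after tBHP than in any of the 9 without it, and ODC1, AMD1 and AZIN1 lie lower, as did 12.5% and 15.3% of all genes tested.

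To see how the oxidant moved the pathway, each gene was compared between cells with and without tBHP within each pre-incubation. SAT1, SMOX and OAZ2 rose and ODC1, AMD1 and AZIN1 fell after all 3 pre-incubations, while 32.4% of all genes tested were called the same way in all 3 (14.6% higher, 17.9% lower). For these 6 genes the 9 libraries after tBHP did not overlap the 9 without it, which held for 27.8% of all genes tested (12.5% higher, 15.3% lower). Within single pre-incubations the 3 libraries of each group did not overlap in 63.8% of all genes tested with PBS, 63.7% with cNSF-HA and 48.7% with fNSF-HA. In PBS cells 9 of the 10 genes passed the threshold (5 higher, 4 lower), while 51.1% of all genes tested did (24.2% higher, 26.9% lower). With cNSF-HA 8 of 10 passed (5 higher, 3 lower) beside 50.8% of all genes (24% higher, 26.8% lower). With fNSF-HA 6 of 10 passed (3 higher, 3 lower) beside 41.9% of all genes (19.2% higher, 22.7% lower). The median absolute log2 change of the 10 genes in PBS cells was 0.49 beside 0.35 over all genes tested. The corresponding medians were 0.52 and 0.34 with cNSF-HA and 0.26 and 0.29 with fNSF-HA. In RNA from a whole culture, fewer cells that express a gene and less of its RNA per cell cannot be told apart.

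**Figure D2:**
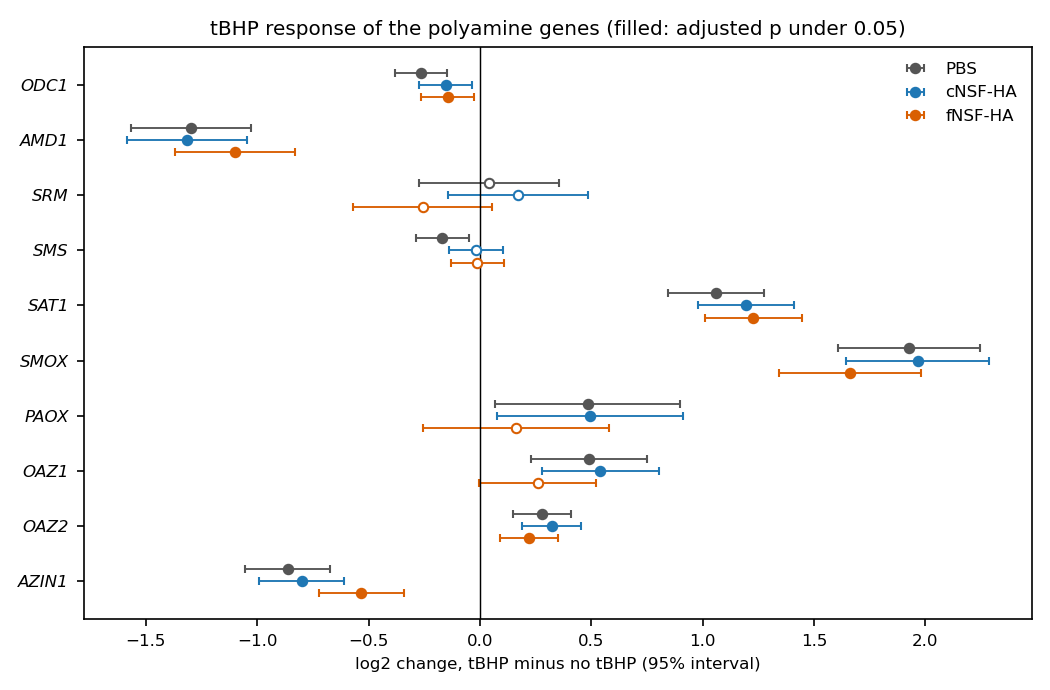
Log2 change after tBHP (x axis, with 95% intervals from limma) of each gene in cells pre-incubated with PBS, cNSF-HA or fNSF-HA, with filled points where the adjusted p was under 0.05. SMOX lies farthest to the right, between 1.66 and 1.97, and AMD1 farthest to the left, between -1.32 and -1.10.

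Among the synthesis genes, AMD1 (chr6:110874770-110895713, GRCh38), which encodes S-adenosylmethionine decarboxylase, fell the most. Its normalized counts were 3188, 3436 and 3459 in the PBS libraries and 1142, 1609 and 1385 in those after tBHP. With cNSF-HA they were 3194, 3308 and 3405 without and 1369, 1335 and 1271 after tBHP. The fNSF-HA libraries held 3477, 3705 and 3416 without and 1597, 2104 and 1325 after it. Every library after tBHP was thus below every library without it, and the second fNSF-HA library was the highest of those after tBHP. The log2 change was -1.30 ± 0.128 (SE) in PBS cells (adjusted p = 2.39e-07), -1.32 with cNSF-HA (adjusted p = 2.24e-07) and -1.10 with fNSF-HA (adjusted p = 2.06e-06). With a trend with GC content and length removed from each library, an alternative chosen after seeing the data, these changes were -0.83, -0.88 and -0.83 and were all called. Of all genes tested, 4.33% had a larger absolute change than AMD1 in PBS cells.

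ODC1 (chr2:10439968-10448504, GRCh38), the first and rate-limiting enzyme, fell by far less. The PBS libraries held 5585, 5719 and 5575 normalized counts without tBHP and 4589, 4838 and 4619 after it. The cNSF-HA libraries held 5898, 5713 and 5517 without tBHP, and 4821, 5331 and 5254 after it. Those of fNSF-HA held 5860, 5824 and 5771 and then 5475, 5288 and 5029. The libraries with and without tBHP did not overlap in any pre-incubation, although the gap was narrow with either HA. The log2 change was -0.27 ± 0.0564 in PBS cells (adjusted p = 0.000778), and it was called in all 17 alternative settings. It was -0.15 with cNSF-HA (adjusted p = 0.03) and -0.15 with fNSF-HA (adjusted p = 0.0465), where the call was lost in 6 and 7 of the 17 settings, edgeR among them (-0.094 and -0.084, adjusted p = 0.15 and 0.22). With the GC and length trend removed they were -0.29 and -0.25 and called. Of the genes tested, 60.2%, 76.7% and 72.5% changed by more than ODC1 in the 3 pre-incubations.

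The calls for both synthases were fewer. SMS (chrX:21940573-21994835, GRCh38), spermine synthase, held 8628, 8419 and 8266 normalized counts in PBS libraries and 7089, 7596 and 7857 after tBHP, all 3 lower. That log2 change of -0.17 ± 0.0573 passed the threshold (adjusted p = 0.0205), but the call was lost in 5 of the 17 settings, among them edgeR (-0.10, adjusted p = 0.116) and the fits without the first or second PBS library or the first PBS library after tBHP (adjusted p = 0.0732, 0.0508 and 0.0959). With cNSF-HA the libraries after tBHP (7784, 8175 and 8686) overlapped those without (8279, 8278 and 8355). With fNSF-HA, 8442, 8796 and 8084 after tBHP overlapped 8503, 8621 and 8380 without it. The SMS changes there were -0.017 (95% interval -0.14 to 0.10) and -0.011 (-0.13 to 0.11), and edgeR gave them the opposite sign (0.043 and 0.050). With the GC and length trend removed, SMS was called lower with cNSF-HA (-0.079, adjusted p = 0.048). The SMS response itself was not called different from that of PBS cells with cNSF-HA (0.15, adjusted p = 0.999) or with fNSF-HA (0.16, adjusted p = 0.667). SRM (chr1:11054584-11060024, GRCh38), spermidine synthase, was not called in any pre-incubation. Its log2 changes were 0.041 (-0.27 to 0.35), 0.17 (-0.14 to 0.48) and -0.26 (-0.57 to 0.056), the first of which changed sign under 3 alternatives. With the GC and length trend removed, SRM was called lower in all 3 (-0.32, -0.30 and -0.34), and without the third fNSF-HA library after tBHP it was called lower with fNSF-HA (-0.47, adjusted p = 0.00436). Without the second fNSF-HA library after tBHP the SRM change with fNSF-HA was -0.014. SRM was the most variable of the 10 genes after tBHP, with an SD within groups of 0.296 on the log2 scale against 0.0432 without tBHP. The fNSF-HA libraries after tBHP alone held 3878, 2658 and 5003 normalized counts.

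Among the catabolic genes, SMOX (chr20:4120980-4187747, GRCh38) showed the largest change of the 10. Its normalized counts were 544, 585 and 585 in PBS cells and 2656, 1875 and 2066 after tBHP. With cNSF-HA they went from 602, 598 and 566 to 2188, 2168 and 2567. With fNSF-HA they were 591, 518 and 653 without and 1990, 1374 and 2323 after tBHP. The lowest library after tBHP was the second of fNSF-HA, and it still lay above the highest without tBHP, 653. SMOX rose 3.80-fold in PBS cells (log2 1.93 ± 0.152, adjusted p = 1.49e-08), 3.91-fold with cNSF-HA (adjusted p = 1.34e-08) and 3.16-fold with fNSF-HA (adjusted p = 1.1e-07). In PBS cells 1.08% of the genes tested had a larger absolute change, with cNSF-HA 0.928% and with fNSF-HA 1.49%.

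SAT1 (chrX:23783173-23786226, GRCh38), the acetyltransferase that controls polyamine breakdown, also rose. It held 547, 558 and 526 normalized counts in PBS libraries and 996, 1181 and 1235 after tBHP. The cNSF-HA libraries held 488, 468 and 521 without tBHP and 1019, 1056 and 1331 after it, and those of fNSF-HA 514, 516 and 545 and then 1182, 1371 and 1151. The lowest library after tBHP held 996 and the highest without it 558. The change was 2.08-fold in PBS cells (log2 1.06 ± 0.103, adjusted p = 2e-07), 2.29-fold with cNSF-HA (adjusted p = 4.99e-08) and 2.34-fold with fNSF-HA (adjusted p = 3.67e-08). PAOX (chr10:133379234-133391694, GRCh38), the peroxisomal oxidase of acetylated polyamines, was scarce, with 38 to 79 reads per library. It held 36.7, 53.2 and 49.3 normalized counts in PBS libraries and 56.7, 66.4 and 71.1 after tBHP. Its log2 changes of 0.48 ± 0.198 in PBS cells (adjusted p = 0.0498) and 0.49 with cNSF-HA (adjusted p = 0.0462) lay near the threshold and were lost in 11 and 8 of the 17 settings. They were 0.13 and 0.069 with the GC and length trend removed. With fNSF-HA the change was 0.16 (-0.26 to 0.58), and the libraries overlapped.

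Stretches of 4 promoters from the RefSeq table of GRCh38.p14, of genes that fell, that were not called and that rose, are shown because MYC-type and stress-responsive factors bind short motifs there. A window of 250 bases before to 50 bases after the start was found for 7 of the 10 genes, and those of SMOX, PAOX and AZIN1 were not in the table. The lines below run 5′ to 3′ on the strand of the gene, stay outside exons of the GENCODE 29 basic annotation, and have in capitals the E-box CACGTG, the site bound by MYC and its partners. They give ODC1 at chr2:10447998-10448120 (minus strand, 108 bases before to 15 after a RefSeq start within the gene, so that the last 15 bases lie in the first exon of that RefSeq transcript), SRM at chr1:11060119-11060238 (minus strand), AMD1 at chr6:110874665-110874769 (plus strand) and SAT1 at chrX:23783053-23783172 (plus strand).
ODC1: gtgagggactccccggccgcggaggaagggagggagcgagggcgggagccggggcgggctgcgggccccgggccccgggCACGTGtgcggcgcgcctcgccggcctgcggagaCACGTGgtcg
SRM: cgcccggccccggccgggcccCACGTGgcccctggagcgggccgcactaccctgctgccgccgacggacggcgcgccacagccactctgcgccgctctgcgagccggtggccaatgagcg
AMD1: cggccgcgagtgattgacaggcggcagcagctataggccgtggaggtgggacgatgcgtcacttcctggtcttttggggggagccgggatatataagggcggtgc
SAT1: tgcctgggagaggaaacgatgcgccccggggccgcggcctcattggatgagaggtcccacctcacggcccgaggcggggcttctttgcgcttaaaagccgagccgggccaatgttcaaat

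ODC1 held 2 E-boxes, 29 bases before that start and at base 6 after it, and SRM held 1 at 199 bases before its start. E-boxes were found on either strand in 7.26% of 35116 promoter windows and in none of the other members with a window. MYC itself held 1468 ± 41.9 normalized counts in PBS cells and 1768 ± 103 after tBHP (log2 0.27, adjusted p = 0.024). Its change was 0.23 with cNSF-HA (adjusted p = 0.0488) and 0.079 with fNSF-HA, where it was not called (adjusted p = 0.532). The core of the antioxidant response element, TGACNNNGC, was matched once, 5 bases before the upstream start of ODC1, and in 13.3% of all windows. The core of the amino acid response element, TGATGNAA, was matched in none of the members' windows and in 3.62% of all. A match is a description of letters and says nothing of binding, and no match says only that the letters are not in this window.

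Of the genes that control ODC1 protein, the antizyme genes rose in PBS and cNSF-HA cells and the antizyme inhibitor gene fell. OAZ1 (chr19:2269509-2273490, GRCh38) held 9032, 8926 and 8598 normalized counts in PBS libraries and 12745, 12226 and 12293 after tBHP. With cNSF-HA it went from 9529, 8792 and 8932 to 11638, 12181 and 16266. The fNSF-HA libraries held 8893, 9047 and 8900 without tBHP, and 11371, 8343 and 12930 after it, of which the second lay below all 3 without tBHP. OAZ1 rose by 0.49 ± 0.124 on the log2 scale in PBS cells (adjusted p = 0.00327) and 0.54 with cNSF-HA (adjusted p = 0.00154), and its change with fNSF-HA was 0.26 (adjusted p = 0.105). Without the third fNSF-HA library after tBHP that change was 0.12 and not called. The fNSF-HA change passed the threshold in 3 of the 17 settings, at 0.44 without the second library after tBHP, at 0.35 in edgeR and at 0.20 with the GC and length trend removed. With that trend removed the changes in PBS and cNSF-HA cells were 0.19 and 0.21, both still called. With all libraries, the difference of the OAZ1 response between fNSF-HA and PBS cells was not called (-0.23, adjusted p = 0.696). Among the exons of OAZ1, 6.87% of the bases are shared with JSRP1 on the opposite strand, which the library kit does not tell apart and which had a mean of 10.2 normalized counts. A further 6.40% are shared with an annotated protein-coding gene on the same strand, whose level was not analysed here. PAOX shares 6.94% with another protein-coding gene on the same strand, also not analysed here. AZIN1 shares 5.35% with AZIN1-AS1 on the opposite strand (mean 15.5 normalized counts) and OAZ2 7.22% with an antisense gene (mean 0.120).

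OAZ2 (chr15:64687573-64703281, GRCh38) rose less but with little spread. It held 1923, 1898 and 1798 normalized counts in PBS libraries and 2257, 2200 and 2358 after tBHP. With cNSF-HA the counts were 1903, 1764 and 1861, then 2275, 2198 and 2439, and with fNSF-HA 1956, 1789 and 1908, then 2148, 2176 and 2257. None of the 9 libraries after tBHP lay within the range without it. The log2 changes were 0.28 ± 0.0629 (adjusted p = 0.00128), 0.32 (adjusted p = 0.000389) and 0.22 (adjusted p = 0.00897). The call with fNSF-HA was lost in 2 of the 17 settings, without the second fNSF-HA library that had no tBHP (adjusted p = 0.0557) and with only the groups compared (adjusted p = 0.0538). AZIN1 moved the other way. It held 5240, 5435 and 5531 normalized counts in PBS libraries and 2864, 3189 and 2868 after tBHP. With cNSF-HA it went from 5015, 5237 and 5399 to 3068, 3137 and 2783. With fNSF-HA it held 5511, 5741 and 5490 and then 3969, 4493 and 3216. All 9 libraries after tBHP were below the 9 without it, and the 3 of fNSF-HA were the highest of the 9 after tBHP. AZIN1 fell by 0.86 on the log2 scale in PBS cells (SE 0.0909, adjusted p = 5.32e-07), by 0.80 with cNSF-HA (adjusted p = 1.39e-06) and by 0.53 with fNSF-HA (adjusted p = 0.000132).

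Ratios between pairs of these genes within a library put the opposite movements side by side. They use counts that are not per length, so that only their change between libraries can be read. SMOX amounted to 0.0890 to 0.113 of ODC1 in the 9 libraries without tBHP and to 0.260 to 0.579 in the 9 after it. SAT1 went from 0.0820 to 0.0979 of ODC1 without tBHP to 0.198 to 0.267 after it. AZIN1 amounted to 0.526 to 0.643 of OAZ1 without tBHP and to 0.171 to 0.539 after it, where the highest value, 0.539, was the second fNSF-HA library and overlapped the range without tBHP. The means of this ratio after tBHP were 0.240 ± 0.0189 in PBS, 0.231 ± 0.0518 in cNSF-HA and 0.379 ± 0.147 with fNSF-HA. AMD1 went from 0.370 to 0.430 of SMS without tBHP to 0.146 to 0.239 after it, with no overlap.

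Genes next to the pathway were taken from a list of 33, of which 24 passed the filter. In PBS cells 8 of the 24 rose and 6 fell after tBHP, with cNSF-HA 8 rose and 6 fell, and with fNSF-HA 4 rose and 4 fell. The shares over the whole table were 24.2% higher and 26.9% lower with PBS, 24% and 26.8% with cNSF-HA, and 19.2% and 22.7% with fNSF-HA. Their median log2 change in PBS cells was 0.0015 beside 0.0043 over all genes. Of 6 transport genes tested, 3 rose in PBS cells. SLC3A2, the heavy chain of amino acid and polyamine exchangers, went from 4167 ± 28.1 to 15568 ± 1525 normalized counts (log2 1.90, adjusted p = 2.31e-10). SLC12A8 rose by 1.26 (adjusted p = 0.00367) and SLC7A1, the transporter of arginine and ornithine, by 0.28 (adjusted p = 0.0322). SLC18B1, a vesicular polyamine transporter, fell by 0.93 on the log2 scale (adjusted p = 0.00176) and ATP13A3, a polyamine transporter, fell by 0.56 (adjusted p = 0.00943).

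ARG2, which makes ornithine from arginine, rose from 10.9 ± 4.82 to 29.5 ± 8.18 normalized counts in PBS cells (log2 1.40, adjusted p = 0.00217). Of the 8 genes of S-adenosylmethionine supply and methionine salvage, MAT2A, MAT2B and ENOPH1 fell and ADI1 rose in PBS cells. MAT2A, which makes the substrate of AMD1, went from 6690 ± 172 to 4388 ± 203 (log2 -0.61, adjusted p = 8.6e-07), MAT2B, its regulatory subunit, fell by 0.32, and ENOPH1 fell by 0.28. ADI1, the salvage dioxygenase, rose by 0.49. Of the hypusine genes, through which spermidine modifies the translation factor eIF5A, EIF5A rose by 0.21 and DHPS by 0.27, while EIF5A2, a paralog, fell by 1.16 (adjusted p = 1.33e-06). SLC3A2, SLC12A8, ARG2 and ADI1 were called higher in all 3 pre-incubations, and MAT2A, ENOPH1, SLC18B1 and EIF5A2 lower, 4 of the 24 in each direction beside 14.6% and 17.9% of all genes. Of the 3 paralogs of the members tested, 0 were called by limma in PBS cells and 0 had an unadjusted p under 0.05. Their changes were 0.20 for SAT2, 0.15 for OAZ3 and -0.31 for AZIN2. With cNSF-HA, SAT2 was called higher (0.39, adjusted p = 0.0171).

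**Figure D3:**
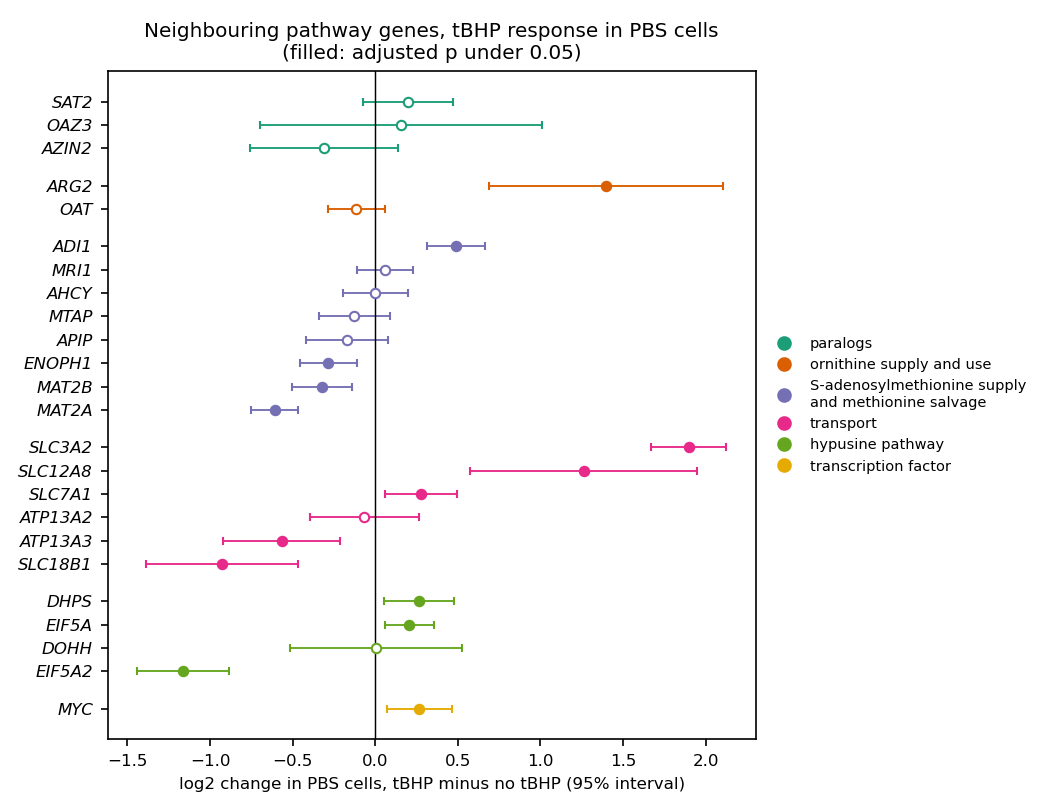
Log2 change after tBHP in PBS cells (x axis, with 95% intervals from limma) of the 24 neighbouring genes that passed the filter, coloured by list, with filled points where the adjusted p was under 0.05. SLC3A2 lies highest at 1.90 and EIF5A2 lowest at -1.16, with 8 filled points above 0 and 6 below.

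The study asked whether the length of HA changes the cells, with and without the oxidant. Before tBHP no difference between pre-incubations passed the threshold. In limma 0 of the 10 genes were called in cNSF-HA against PBS, in fNSF-HA against PBS and in cNSF-HA against fNSF-HA, where 0 of all genes were called as well. None of the 10 had an unadjusted p under 0.05 in any of these comparisons, where 0.921%, 0.796% and 1.51% of all genes had one, and edgeR and DESeq2 called 0 of the 10. Of all genes, edgeR called 0% in each and DESeq2 0%, 0.0219% and 0%. The limma fit used 1 estimate of spread per gene over all 18 libraries, so the spread after tBHP entered these p-values and intervals. With only the groups compared, limma called 0, 0 and 1 of the 10 (AZIN1, lower), beside 0%, 0.153% and 7.16% of all genes. The log2 differences of the 10 genes lay between -0.14 and 0.10 for cNSF-HA against PBS, and between -0.049 and 0.12 for fNSF-HA against PBS. For cNSF-HA against fNSF-HA they lay between -0.098 and 0.038. The lowest of these was SAT1 with cNSF-HA, whose 488, 468 and 521 lay below the 547, 558 and 526 of PBS (log2 -0.14, 95% interval -0.36 to 0.073). It was 1 of 2 genes whose libraries did not overlap in that comparison, SRM being the other, where 15.2% of all genes did not overlap. In fNSF-HA against PBS only ODC1 did not overlap (14% of all genes), and in cNSF-HA against fNSF-HA AMD1, SMS and AZIN1 did not (25% of all genes).

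After tBHP, AZIN1 had the smallest p of the 10 genes in both comparisons with fNSF-HA. The 3 fNSF-HA libraries (3969, 4493 and 3216) all lay above those of PBS (2864, 3189 and 2868) and of cNSF-HA (3068, 3137 and 2783). The difference from PBS was 0.38 ± 0.0909 on the log2 scale and missed the threshold (adjusted p = 0.0736), as did that of cNSF-HA from fNSF-HA (-0.37, adjusted p = 0.0981). Of all genes, 0.139% were called in fNSF-HA against PBS and 0% in cNSF-HA against fNSF-HA. In the latter 0.0981 was the smallest adjusted p of any gene, and SRM had the same. The groups did not overlap in 3 of the 10 genes, AZIN1, ODC1 and SMS, all higher with fNSF-HA, and in 12% of all genes (6.86% higher). In cNSF-HA against fNSF-HA, AZIN1 was 1 of the 10 without overlap, beside 13.4% of all genes, and in cNSF-HA against PBS 0 of the 10 were, beside 9.57%. DESeq2 called AZIN1 in both comparisons (adjusted p = 0.00806 and 0.0246), where it called 3.22% and 6.97% of all genes, and over the 17 settings the adjusted p ranged from 0.00128 to 0.656 against PBS. Without the second fNSF-HA library the difference from PBS was 0.27 (adjusted p = 0.245), and without the third it was 0.51 (adjusted p = 0.00128), in a fit that called 29.4% of all genes. The responses of AZIN1 to tBHP, -0.53 with fNSF-HA and -0.86 with PBS, differed by 0.33 ± 0.128, which was not called (adjusted p = 0.667). The 23 alternative settings for that test gave adjusted p-values from 0.0657 to 1.00.

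The differences of ODC1 and SMS after tBHP were small and did not pass the threshold. For ODC1 the difference from PBS was 0.17 ± 0.0564 in fNSF-HA (adjusted p = 0.133) and 0.13 with cNSF-HA (adjusted p = 0.561). For SMS it was 0.17 ± 0.0573 (adjusted p = 0.135) and 0.13 (adjusted p = 0.567). The fNSF-HA libraries of both genes lay above all 3 PBS libraries after tBHP, while those of cNSF-HA overlapped them. DESeq2 called ODC1 in fNSF-HA against PBS (adjusted p = 0.0427). In limma 0 of the 10 genes were called in any of the 3 comparisons after tBHP. Of all genes, limma called 0% in cNSF-HA against PBS, 0.139% in fNSF-HA against PBS and 0% in cNSF-HA against fNSF-HA. In the same order, 2, 3 and 4 of the 10 had an unadjusted p under 0.05, beside 8.64%, 22.7% and 32.2% of all genes. In edgeR 0 were called as well, beside 0%, 0.263% and 0% of all genes. DESeq2 called 0, 2 and 1 of the 10, beside 0.0365%, 3.22% and 6.97% of all genes. Of the differences between responses, 0 of the 10 were called in limma, edgeR or DESeq2, and of all genes 0% were called, except 0.0292% by DESeq2 for fNSF-HA against PBS. At an unadjusted p under 0.05 limma gave 1 of the 10 for fNSF-HA against PBS, AZIN1, beside 6.88% of all genes. It gave 0 for cNSF-HA against PBS and for cNSF-HA against fNSF-HA, beside 4.06% and 3.89%. The 2 genes with the largest responses in PBS cells showed wide intervals here. The response of SMOX differed from that in PBS cells by 0.038 (95% interval -0.41 to 0.49) with cNSF-HA and by -0.27 (-0.72 to 0.19) with fNSF-HA, and that of AMD1 by -0.019 (-0.40 to 0.36) and 0.20 (-0.18 to 0.58).

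**Figure D4:**
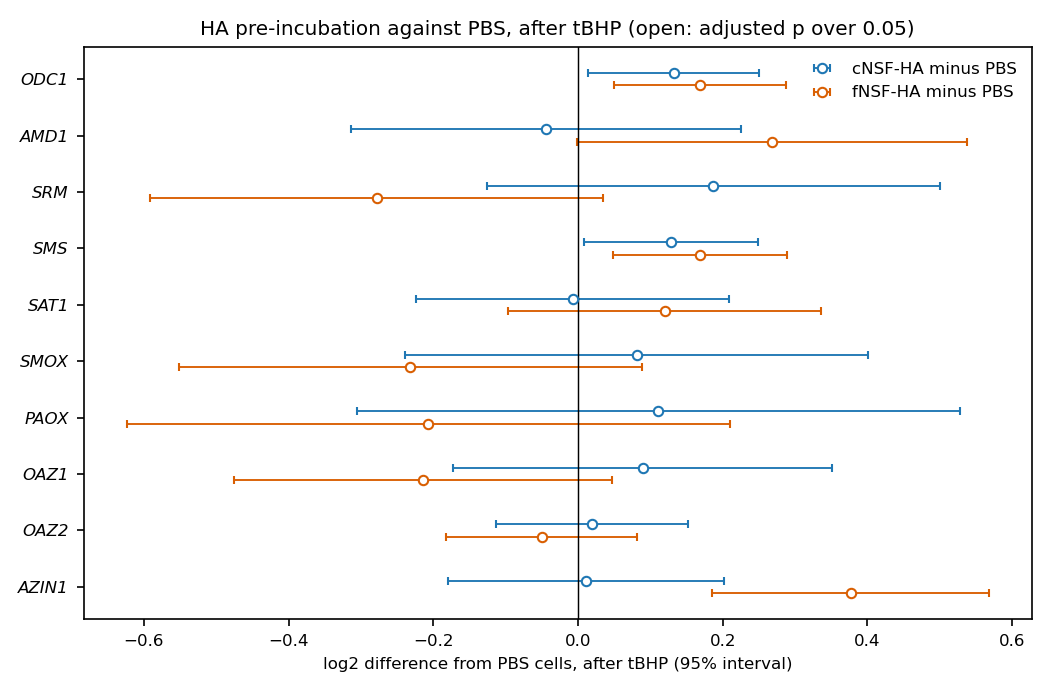
Log2 difference from PBS cells (x axis, with 95% intervals from limma) after tBHP in cells pre-incubated with cNSF-HA or fNSF-HA, for the 10 genes. All points are open, as no adjusted p was under 0.05, and AZIN1 with fNSF-HA lies farthest to the right at 0.38.

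The second fNSF-HA library after tBHP stood apart for most of these genes, and its deviations ran with the GC content of their transcripts. SRM (63.7% GC), PAOX (63.3%), OAZ1 (61.2%) and SMOX (61.0%) lay in that library 0.53 to 0.73 below their mean over the 9 libraries after tBHP on the log2 scale. AMD1 (37.7%), AZIN1 (42.3%) and SAT1 (43.3%) lay 0.24 to 0.55 above it. Over all genes, the fifth with the lowest GC was shifted by 0.43 in that library and the fifth with the highest by -0.61. The first PBS library after tBHP showed the opposite for the 3 genes of low GC, which lay 0.18 to 0.33 below the mean. In the third cNSF-HA library the 4 genes of high GC lay 0.29 to 0.43 above it, and the fifth of all genes with the highest GC was shifted by 0.25.

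With the trend of each library with GC content and length removed, the calls of AMD1, AZIN1, ODC1, SMS, SAT1, SMOX, OAZ1 and OAZ2 held in PBS cells while several sizes changed. That fit called 57.8% of all genes in PBS cells, 56.6% with cNSF-HA and 56.1% with fNSF-HA. The trend was fitted to the deviation of each library from the mean of all 18 libraries. Any part of the tBHP response that runs with GC content or length was therefore removed as well. The change of AMD1 in PBS cells was then -0.83 and that of OAZ1 0.19, whereas SMOX stood at 1.62 and SAT1 at 1.21. PAOX was then called in no pre-incubation. The difference of AZIN1 between fNSF-HA and PBS cells after tBHP was 0.25 (adjusted p = 0.0195) and that of ODC1 0.19 (adjusted p = 0.0452), where 0.503% of all genes were called. The difference of AZIN1 between cNSF-HA and fNSF-HA cells was -0.19 and not called (adjusted p = 0.0951). The differences of SRM and OAZ1 between cNSF-HA and fNSF-HA cells, 0.47 and 0.30 without the correction, were then -0.021 and -0.044.

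**Figure D5:**
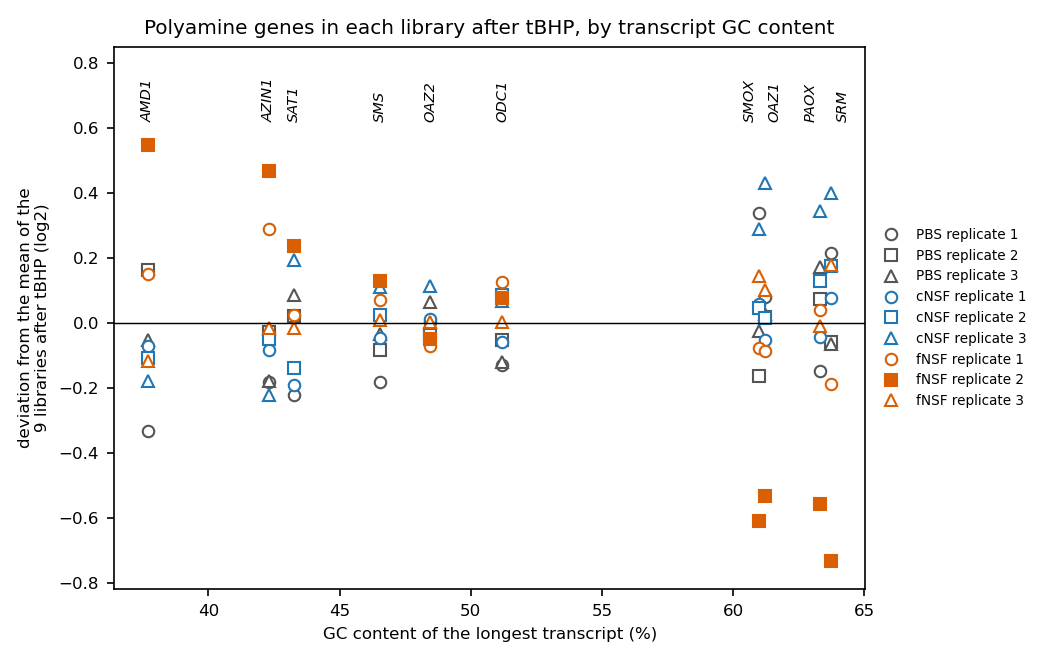
Deviation of each of the 10 genes from its mean over the 9 libraries after tBHP (y axis, log2) against the GC content of its longest transcript (x axis, %), with 1 symbol per library and the second fNSF-HA library filled. In that library the 4 genes above 60% GC lie at -0.53 or lower and the 3 genes below 45% at 0.24 or higher.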

How the data were processed

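Polyadenylated RNA of IMR90 cells was sequenced by the authors as single-end reads of 100 nt from a kit that does not mark strand (TruSeq V2). The submitters' processing notes name Trimmomatic 0.32, STAR 2.5.2b, featureCounts of Subread 1.5.0-p3, DESeq2 and GRCh38.p7, and the annotation is not given in the sources used here. The deposited signal per gene and library equals its reads over the DESeq2 size factor of that library and is called normalized count here, and 100% of values gave whole reads within 0.01 reads. The table also holds the authors' p-value, q-value and p-value rank (3 columns), which were not used.

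Values were tested as log2(value + 1), on which scale all fold changes are given, for genes with a mean of at least 10, with limma 3.58.1 in R 4.3.3 (1 coefficient per group, mean-variance trend, two-sided, Benjamini-Hochberg adjustment over 13686 genes, threshold 0.05). The 9 comparisons set cells with and without tBHP against each other within each pre-incubation, and the pre-incubations against each other without and after tBHP. Interactions tested the 3 differences between responses. The comparisons share groups and are not independent. Each gene had 1 estimate of spread from all 18 libraries, with and without tBHP. A self-test on simulated data preceded the fit. Alternatives were other pseudocounts (0.1 and 5), no filter or a minimum mean of 50, 2 rescalings, a replicate block, edgeR 4.0.16 and DESeq2 1.42.0 on the recovered reads, only the groups compared, each library left out, and removal of a trend with GC and length. The design assumed the same unit that the file held. The depth of each library was 20261103 to 26287660 reads, and the lowest member, PAOX, rested on 38 to 79. Replicate pairs differed by more than sampling noise in each group, which does not show what separated the libraries. Each library was counted as 1 replicate.

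The genes named are the 10 members, the genes of the 33 next to the pathway that were called in PBS cells after tBHP (3 paralogs not called there, 3 genes without reads, and JSRP1 and AZIN1-AS1, which overlap members, are named after their values were seen), and the 5 genes most like ODC1, SAT1 and SMOX. The members and lists were chosen with earlier results of these data known. Exon lengths, GC content and positions are from GENCODE 29 and promoters from RefSeq, both on GRCh38.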

Additional observations from a re-analysis of the deposited data

How the results depend on the processing

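AMD1, AZIN1, SAT1 and SMOX kept their call and direction after tBHP in all 3 pre-incubations under all 17 alternatives, and OAZ1 and OAZ2 did so in PBS and cNSF-HA cells. Of the calls lost, ODC1 with cNSF-HA was lost without the first or second library that had no tBHP or the first after it, and ODC1 with fNSF-HA without any 1 of the libraries that had no tBHP or the third after it. PAOX was lost in PBS cells without the first or the third library that had no tBHP or the second or the third after it, and with cNSF-HA without any 1 library except the first after tBHP. The number of the 10 genes called was 7 to 9 in PBS, 6 to 9 in cNSF-HA and 4 to 8 in fNSF-HA cells, beside 21.8% to 57.8%, 21.1% to 57% and 16.4% to 56.1% of all genes. Of the comparisons with 0 calls, fNSF-HA against PBS after tBHP gave 2 (ODC1 and AZIN1) with DESeq2 and 2 (the same genes) with the GC and length trend removed, beside 3.22% and 0.503% of all genes. Leaving out 1 library gave 0 to 7 there, with 7 without the third fNSF-HA library (ODC1, AMD1, SMS and AZIN1 higher, SRM, SMOX and OAZ1 lower), where 29.4% of all genes were called, and 1 (AZIN1) without the second PBS library, where 1.25% were. In cNSF-HA against fNSF-HA after tBHP, DESeq2 gave 1 (AZIN1, lower; 6.97% of all genes), and leaving out 1 library gave 0 to 5, the 5 being without the third fNSF-HA library (40.8% of all genes). Fitting only the groups compared gave 1 in cNSF-HA against fNSF-HA without tBHP (AZIN1, lower), beside 7.16% of all genes. That fit leaves out the libraries after tBHP, whose median SD within groups was larger (0.206 against 0.0761). The cause of these differences between settings was not tested.

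Several values changed sign. SRM in PBS cells was -0.040 with quantile normalization and -0.32 with the trend removed, where it was called, and leaving out 1 library gave -0.050 (the first PBS library after tBHP) to 0.089. With cNSF-HA the SRM value was -0.30 with the trend removed. SMS was 0.043 with cNSF-HA and 0.050 with fNSF-HA in edgeR. Leaving out 1 library gave SMS -0.058 to 0.021 with cNSF-HA (the latter without the first library after tBHP) and -0.041 to 0.020 with fNSF-HA (the latter without the third after tBHP). For PAOX with fNSF-HA it gave -0.0075 (without the third library that had no tBHP) to 0.35. In cNSF-HA against fNSF-HA after tBHP, SRM (0.47) was -0.021 and OAZ1 (0.30) -0.044 with the trend removed. AZIN1 there ranged from -0.50 (without the third fNSF-HA library) to -0.19 (trend removed), and was -0.26 without the second fNSF-HA library (adjusted p = 0.572).

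The labels give the same replicate numbers in each group, but no pair of groups had all 3 correlations of same-numbered deviations over 0.1. In PBS cells with against without tBHP they were 0.0255 to 0.0869, and -0.104 to 0.0399 for unlike numbers. Each PBS library without tBHP correlated best with its own number. The second PBS library after tBHP did so with the third PBS library (0.0399 against 0.0255). Before tBHP, each cNSF-HA library also correlated best with the fNSF-HA library of its number (0.0341 to 0.115). In the other pairs of groups 0 to 2 of the 3 libraries did so. The highest same-numbered value, 0.333, was between PBS and fNSF-HA after tBHP, where unlike numbers reached 0.419. With the replicate number as a block, the counts after tBHP were 8 in PBS, 7 in cNSF-HA and 6 in fNSF-HA cells, beside 52.8%, 52.4% and 43.4% of all genes. PAOX was no longer called (adjusted p = 0.0607 and 0.0564), and no other call was lost. PAOX rested on 38 to 79 reads per library, so that counting error limits it most.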

Other observations

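Over the 18 libraries, the genes with the pattern most like SMOX were PHGDH (Pearson r = 0.997), SLC1A5, FAM214B, DEDD2 and PLK3 (r = 0.996), among 10313 genes with a mean normalized count of at least 100. PHGDH starts serine synthesis and SLC1A5 carries glutamine. The genes most like SAT1 were DUSP11 (r = 0.993), BPGM, MFAP1, CHMP1B and RHOA (r = 0.990). Those most like ODC1 were ANXA5 (r = 0.973), ATP5C1, HSPA4, MIS12 and BZW2 (r = 0.954). The libraries share the groups with and without tBHP, so these values are a description.

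Of the genes next to the pathway, 9 of 33 did not reach a mean of 10. ARG1, OTC and SLC22A2 had no read in any library. The 6 rows of AMD1 and SRM pseudogenes reached at most a normalized count of 6.14, beside a mean of 2429 for AMD1.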
